A study of Mus musculus with 140 samples.

Results

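The constitutive proteasome subunit genes, those of the standard proteasome that cells make without an inflammatory signal, were followed in mouse embryonic stem cells during knockdown of single self-renewal regulators and during retinoic acid treatment. The genes were those whose symbol is Psma, Psmb, Psmc or Psmd followed by a number, except Psmb8, Psmb9 and Psmb10, and with probe sets that name no other gene. There were 36 such genes among 18193 genes named by probe sets of their own, and all 36 passed the filter on low signals that left 14560 genes for testing. They had 77 probe sets, and the probe set with the highest mean signal stood for each gene, 33 on the A array and 3 (Psma1, Psmb11 and Psmc5) on the B array. Psmc3ip, whose symbol goes on after the number and whose product is a meiotic recombination factor, was not counted.

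All cells were of CCE, a male mouse embryonic stem cell line of the 129/Sv strain. In 7 courses cells carried an shRNA, a short hairpin RNA that lowers its target transcript, against Nanog, Oct4, Sox2, Esrrb, Tbx3, Tcl1 or the transcript labelled Mm343880. In an eighth course cells were grown in 5 µM retinoic acid without LIF, the cytokine that keeps the line undifferentiated. The labels do not state whether the retinoic acid cells were transduced, so retinoic acid, the absence of LIF and any difference in vector cannot be told apart. The reference was a course with the empty H1P vector. LIF (1000 units/ml) was present throughout in the knockdown and empty vector cultures, from which cells positive for GFP, the vector's marker, were sorted each day. Their day 0 fell 48 hours past transduction. Samples numbered 7 (days 0 to 6) for Mm343880 and for retinoic acid and 8 (days 0 to 7) for every other course, 1 a day, with no repeat transduction. A p-value therefore measures how single samples scatter around a smooth curve, and some of that scatter may be technical; the 70 RNA samples limit the precision.

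The proteasome is the complex that degrades proteins marked with ubiquitin. Its core is a barrel in which outer rings of alpha subunits (Psma genes) gate inner rings of beta subunits (Psmb genes), and in the constitutive form Psmb5, Psmb6 and Psmb7 carry the active sites. The regulatory cap that feeds the core has a base, with a ring of ATPases (Psmc genes) that unfold substrates and the scaffold subunits Psmd1 and Psmd2, and a lid (most other Psmd genes) in which Psmd14 removes ubiquitin. Embryonic stem cells are known for high proteasome activity, and the factors Nfe2l1 and Nfe2l2 are known to raise subunit transcription through antioxidant response elements.

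Promoters of 29 of the 36 genes were in the RefSeq table (build GRCm38.p6), each from 250 bases before to 50 bases from the start of the gene on. Those of the 4 subunit genes that were furthest below the empty vector late in retinoic acid, and of Psmc6, which was above it, are shown 5′ to 3′ in the direction of the gene. Capitals mark matches to 3 motifs searched on both strands: the antioxidant response element core TGACNNNGC, the ETS site CCGGAAGT and the CCAAT box CCAAT.
Psmb3, chr11:97703184-97703483, plus strand: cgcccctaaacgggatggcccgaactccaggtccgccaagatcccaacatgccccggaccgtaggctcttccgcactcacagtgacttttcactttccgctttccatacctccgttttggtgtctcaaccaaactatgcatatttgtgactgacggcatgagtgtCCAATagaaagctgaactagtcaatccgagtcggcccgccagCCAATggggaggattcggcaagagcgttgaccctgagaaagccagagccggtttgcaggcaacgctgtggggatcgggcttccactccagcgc
Psmb5, chr14:54617946-54618245, minus strand: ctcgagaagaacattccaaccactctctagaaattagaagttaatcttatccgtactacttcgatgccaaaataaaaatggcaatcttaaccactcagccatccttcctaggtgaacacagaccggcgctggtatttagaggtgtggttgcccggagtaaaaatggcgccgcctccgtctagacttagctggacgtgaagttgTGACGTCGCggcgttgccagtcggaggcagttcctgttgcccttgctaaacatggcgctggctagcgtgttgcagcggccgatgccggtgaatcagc
Psmb6, chr11:70525107-70525406, plus strand: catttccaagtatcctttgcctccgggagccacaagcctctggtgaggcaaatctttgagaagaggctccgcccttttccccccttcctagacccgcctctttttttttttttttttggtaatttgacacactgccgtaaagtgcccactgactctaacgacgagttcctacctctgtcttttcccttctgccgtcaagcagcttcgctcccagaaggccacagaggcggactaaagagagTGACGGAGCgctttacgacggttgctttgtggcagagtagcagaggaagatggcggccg
Psmd13, chr7:140882144-140882443, plus strand: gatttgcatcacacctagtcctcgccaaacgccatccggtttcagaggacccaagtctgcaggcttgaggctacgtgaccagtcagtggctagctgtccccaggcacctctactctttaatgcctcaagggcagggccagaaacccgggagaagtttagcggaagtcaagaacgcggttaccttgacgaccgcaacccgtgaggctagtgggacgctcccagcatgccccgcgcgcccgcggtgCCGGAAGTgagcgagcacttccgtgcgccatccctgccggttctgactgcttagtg
Psmc6, chr14:45329574-45329873, plus strand: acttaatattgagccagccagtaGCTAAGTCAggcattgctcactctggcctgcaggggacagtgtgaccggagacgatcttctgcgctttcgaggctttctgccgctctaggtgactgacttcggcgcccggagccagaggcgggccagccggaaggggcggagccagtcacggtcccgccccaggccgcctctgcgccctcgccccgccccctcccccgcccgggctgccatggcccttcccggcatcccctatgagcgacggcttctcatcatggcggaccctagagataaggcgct
The antioxidant response core stood in 5 of the 29 promoters (17.2%; Psmb5, Psmb6, Psmc6, Psmd9 and Psmd12), against 12.4% of all 32851 promoters in the table. Of these, Psmb5, Psmb6 and Psmd9 were called below the empty vector late in retinoic acid, Psmc6 above it and Psmd12 in neither direction. A part of the motif in these differences was not tested. The ETS site stood in 5 (17.2%; Psmc1, Psmc2, Psmd6, Psmd12 and Psmd13), against 3.89% of all promoters, and the CCAAT box in 12 (41.4%), against 37.4%. A match is a run of letters and not a measured binding site.

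Each of the 6 targets with a probe set was lower in its own course than in the empty vector late in the course, on the log2 scale by between -2.01 ± 0.22 (Tcl1) and -3.24 ± 0.20 (Esrrb; SE); the Mm343880 transcript itself was not analysed here. Of 6 embryonic stem cell markers, all were called lower in the Nanog, Oct4, Sox2 and retinoic acid courses, 3 in Mm343880, 2 in Esrrb and 2 in Tcl1, and 0 in Tbx3. Their summed signal ran from 538 to 48590 in retinoic acid and from 44236 to 55220 in the empty vector. The 5 trophoblast markers were all called higher in the Nanog, Oct4 and Sox2 courses. In Tcl1, Tbx3 and Mm343880 3 of the 5 were higher, among them Krt19 (2.07 ± 0.46, 3.19 ± 0.46 and 2.72 ± 0.46) and Krt7, and in Mm343880 Hand1 was lower. In Esrrb 3 of the 5 trophoblast markers were higher, and in retinoic acid 2 were higher and 2 lower. Of 5 fibroblast markers 3 were higher and 1 lower in Sox2 and likewise in Esrrb, and 2 were higher and 1 lower in Tbx3. In Nanog, Oct4 and Tcl1 1 fibroblast marker was lower, and in Mm343880 1 was higher. The part of these markers in the differences of members was not tested. Of 4 endoderm markers tested, Gata6 (3.86 ± 0.18) and Gata4 (1.89 ± 0.20) were higher in retinoic acid. Of 5 blood markers 2 were tested; Cd68 was lower in retinoic acid (-1.01 ± 0.23) and Oct4 (-0.67 ± 0.23) and Lyz2 was not called in retinoic acid, while Ptprc and Cd3e did not pass the filter. Array medians were 342 ± 40.1 in retinoic acid and 282 ± 28.8 in the empty vector on A arrays (SD, n = 7 and 8).

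All members but Psma8, Psmb11 and Psmd10 were above the median of their table on all 70 arrays. The 7 general alpha ring genes Psma1 to Psma7 had mean signals, over the 70 samples, between 4100 (Psma1) and 12016 (Psma2). The 7 general beta ring genes Psmb1 to Psmb7 lay between 6289 (Psmb2) and 19650 (Psmb7), and the 6 ATPase genes Psmc1 to Psmc6 between 2065 (Psmc1) and 6933 (Psmc2). The base scaffold and receptor genes Psmd1, Psmd2 and Psmd4 lay between 5865 and 8670, and the 8 lid genes (Psmd3, Psmd6, Psmd7, Psmd8, Psmd11, Psmd12, Psmd13 and Psmd14) between 3129 (Psmd7) and 11102 (Psmd11). These are ranges of probe set signals, which depend on the probes and give no order of transcript amounts. The base assembly chaperones Psmd5, Psmd9 and Psmd10 had mean signals of 3146, 1019 and 516. Psma8, the alpha subunit of the testis form, averaged 380, with a lowest signal of 133 and a highest of 785. Psmb11, the beta subunit of the thymus form, averaged 77.9 and was between 18.8 and 264; it was called in no late comparison.

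Most members varied little. The coefficient of variation over all 70 samples was lowest for Psmb2 (9.38%) and, among genes with a mean signal of at least 2000, highest for Psmc6 (45.9%), Psma7 and Psmb3 (both 27.0%). Psma1, Psmb5 and Psmc5 are measured by probe sets that both arrays carry, so each sample was read for them on the A and on the B array. The SD of one array between these readings was 0.116 for Psma1, 0.0721 for Psmb5 and 0.146 for Psmc5 on the log2 scale, against a median of 0.131 over all 100 shared probe sets. Arrays had been scaled on these 100 probe sets, which include the 3 subunit genes.

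Subunit genes fell in retinoic acid and moved little in the other courses. The median over members of a sample's log2 signal, relative to each gene's own mean over the 70 samples, was -0.04 on day 0 and -0.05 on day 1 of retinoic acid, -0.41 on day 2, -0.40 on day 3, -0.36 on day 4, -0.44 on day 5 and -0.54 on day 6. In the empty vector course it stayed between -0.07 and 0.13. It stayed between 0.12 and 0.24 in the Tcl1 course, between 0.07 and 0.17 in Mm343880, between 0.01 and 0.13 in Esrrb and between -0.19 and -0.03 in Sox2. Every Tcl1, Mm343880 and Esrrb sample was thus above 0 and every Sox2 sample below it, on a scale whose 0 includes the low retinoic acid samples. Other genes with a signal of at least 2000 were also above 0 in every Tcl1 (0.07 to 0.14), Mm343880 (0.06 to 0.14) and Esrrb (0.03 to 0.15) sample.

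**Figure D1:**
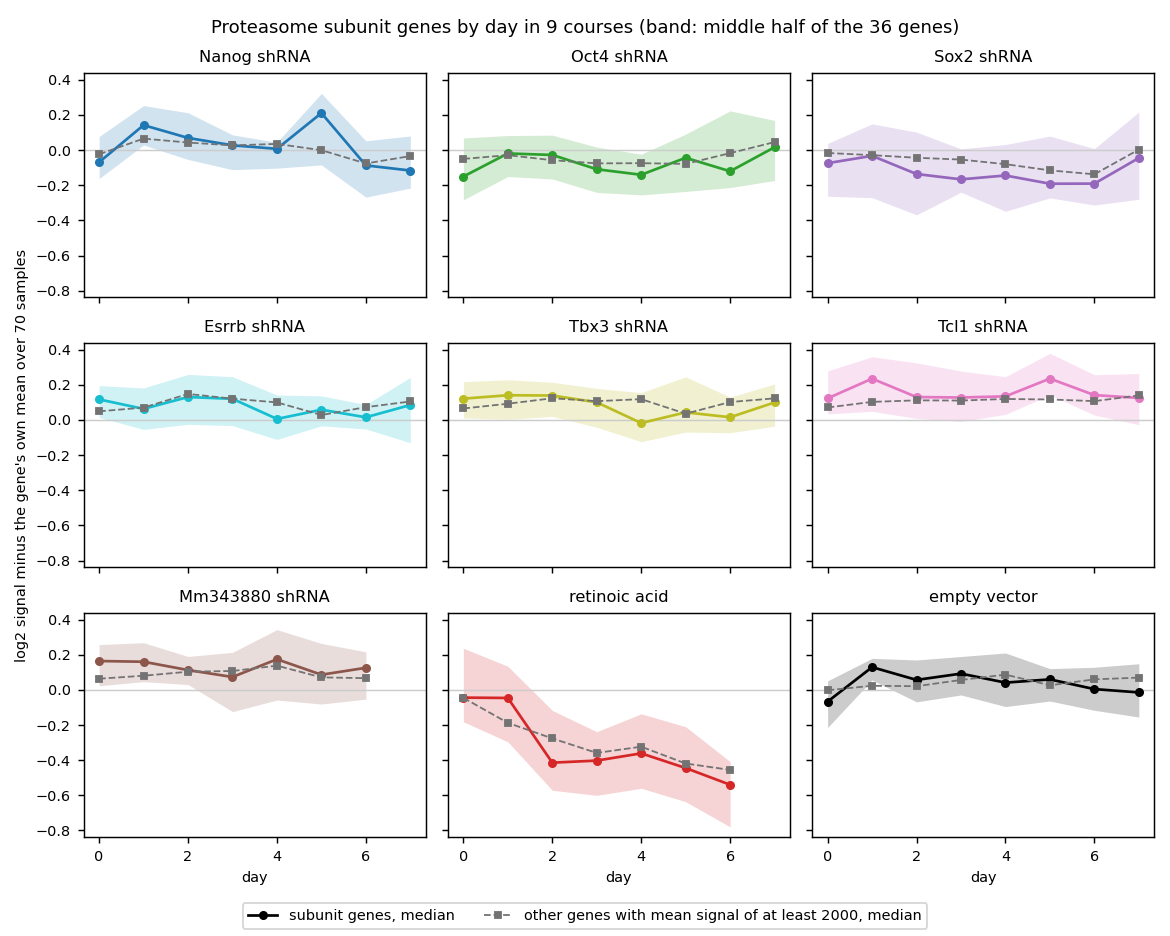
Median log2 signal of the 36 subunit genes relative to each gene's own mean over 70 samples (vertical axis) by day (horizontal axis), 1 panel a course; the band runs from the lower to the upper quartile of the 36 genes and the dashed grey line is the median of other genes with a mean signal of at least 2000. Retinoic acid reaches -0.54 on day 6 while the empty vector stays between -0.07 and 0.13, and the grey line falls with the subunit genes.

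Late in the retinoic acid course, averaged over days 4 to 6 of the fitted curves, 26 of 36 members were lower and 1 was higher than in the empty vector (limma, adjusted p under 0.05), which is 72.2% lower. Of all 14560 genes tested, 23.5% were lower and 27.5% higher in this comparison. The median log2 difference was -0.47 over the members and 0.04 over all genes. The beta ring had the lowest median (-0.84, 7 of 8 lower), then the alpha ring (-0.47, 7 of 8 lower). The base scaffold and receptor genes (median -0.45) were lower in 3 of 3, the ATPases (-0.25) lower in 3 and higher in 1 of 6, and the lid genes (-0.32) lower in 4 of 8. Of the base assembly chaperones, 2 of 3 were lower. Day 6 of retinoic acid held the lowest of all 70 signals for 19 of the 36 members. Without that sample 11 members were lower and 0 higher, although the median stayed at -0.50; leaving day 6 out of all courses gave 13 lower and 0 higher, and late values over days 4 and 5 gave 24 lower and 1 higher.

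The falls were largest for Psmb3, Psmd13, Psmb6 and Psmb5. Psmb3, a beta subunit without an active site, had signals of 3807, 3201 and 2790 in retinoic acid on days 4, 5 and 6, against 10321, 8896 and 10714 in the empty vector. Its log2 difference was -1.59 ± 0.16 (SE), a 3.01-fold lower signal (limma, adjusted p = 2.7e-11). Already on days 0 and 1 it read 5979 and 6080 in retinoic acid, against 7341 and 10813 in the empty vector. Psmd13, a lid subunit, had 2466, 2115 and 1646 in retinoic acid on days 4 to 6, against 5690, 5500 and 5129 in the empty vector, a log2 difference of -1.38 ± 0.12 (adjusted p = 3.2e-13). On every day from 0 to 6 both genes read lower in retinoic acid than in the empty vector, and their late signals did not overlap. Both were named for the largest falls over the late days, so the lack of overlap adds no separate support.

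Among the active-site genes, Psmb5 (chymotrypsin-like site) read 9520 on day 0, 10243, 8492, 7996, 6496, 5610 and then 5156 on day 6 of retinoic acid. In the empty vector it read 10608 on day 0 and between 12944 and 14323 on days 1 to 6. The late log2 difference was -1.19 ± 0.09 (adjusted p = 2.9e-15), and the reading of the same samples on the B array gave -1.17 ± 0.12 (adjusted p = 2.2e-11). In retinoic acid each day after day 1 read lower than the day before. Psmb6 (caspase-like site) had 5763, 5449 and 4921 in retinoic acid on days 4 to 6, against 13048, 12004 and 12867 in the empty vector, a log2 difference of -1.20 ± 0.12 (adjusted p = 1.2e-11). Psmb7 (trypsin-like site) had 16504, 14406 and 13747 in retinoic acid, against 18820, 18483 and 19507 in the empty vector, a smaller difference of -0.34 ± 0.09 (adjusted p = 0.0021). The call on Psmb7 depends on the scaling: after quantile normalization it was higher in retinoic acid by 0.23 (adjusted p = 0.0059), and without day 6 of retinoic acid it was not called (-0.41 ± 0.19, adjusted p = 0.10).

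Other members that fell were Psma8 (-1.12 ± 0.20, adjusted p = 8.9e-06), the lid gene Psmd8 (-0.97 ± 0.12), the ATPase gene Psmc4 (-0.87 ± 0.12), and Psmb1 (-0.79 ± 0.18) and Psmb4 (-0.78 ± 0.12), both beta subunits without an active site. Psma8 read 676 and 748 on days 0 and 1 of retinoic acid and between 173 and 221 on days 3 to 6, against 385 to 664 in the empty vector on days 3 to 6. The remaining falls lay between -0.31 (Psma4) and -0.69 (Psmc5). Psmc6, an ATPase gene, was the member that went the other way, with 4467, 4058 and 4403 in retinoic acid on days 4 to 6, against 2378, 2446 and 2469 in the empty vector. Within the retinoic acid course no rise was called (-0.21 ± 0.24 on the log2 scale, adjusted p = 0.58), and the late log2 difference from the empty vector was 0.76 ± 0.22 (1.70-fold higher, adjusted p = 0.0027), and a second probe set of Psmc6 gave 1.73 ± 0.26 (adjusted p = 3.7e-07). The Psmc6 signal was similar on day 0, with 4425 in retinoic acid and 4074 in the empty vector, and on day 2 it was 4482 in retinoic acid and 2081 in the empty vector. With arrays set to equal medians its difference was 0.44 (adjusted p = 0.057), and without day 6 of retinoic acid 0.78 ± 0.43 (adjusted p = 0.19).

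The 9 members not called late in retinoic acid were Psma3, Psmb11, the ATPases Psmc1 and Psmc2, Psmd10 and the lid genes Psmd6, Psmd7, Psmd12 and Psmd14. Psma3 read 8528, 7649 and 6907 in retinoic acid on days 4 to 6, against 7083, 6951 and 7656 in the empty vector (0.07 ± 0.11). Psmd14, the deubiquitinase of the lid, read 8414, 5001 and 5007 in retinoic acid, against 5949, 6547 and 5028 in the empty vector (-0.05 ± 0.17). In both genes the groups overlapped. After quantile normalization Psma3, Psmc2 and Psmd6 were called higher in retinoic acid, and the count there was 5 higher and 21 lower. With equal array medians it was 0 higher and 29 lower. These scalings moved the median of all genes to -0.21 and -0.30 in this comparison.

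**Figure D2:**
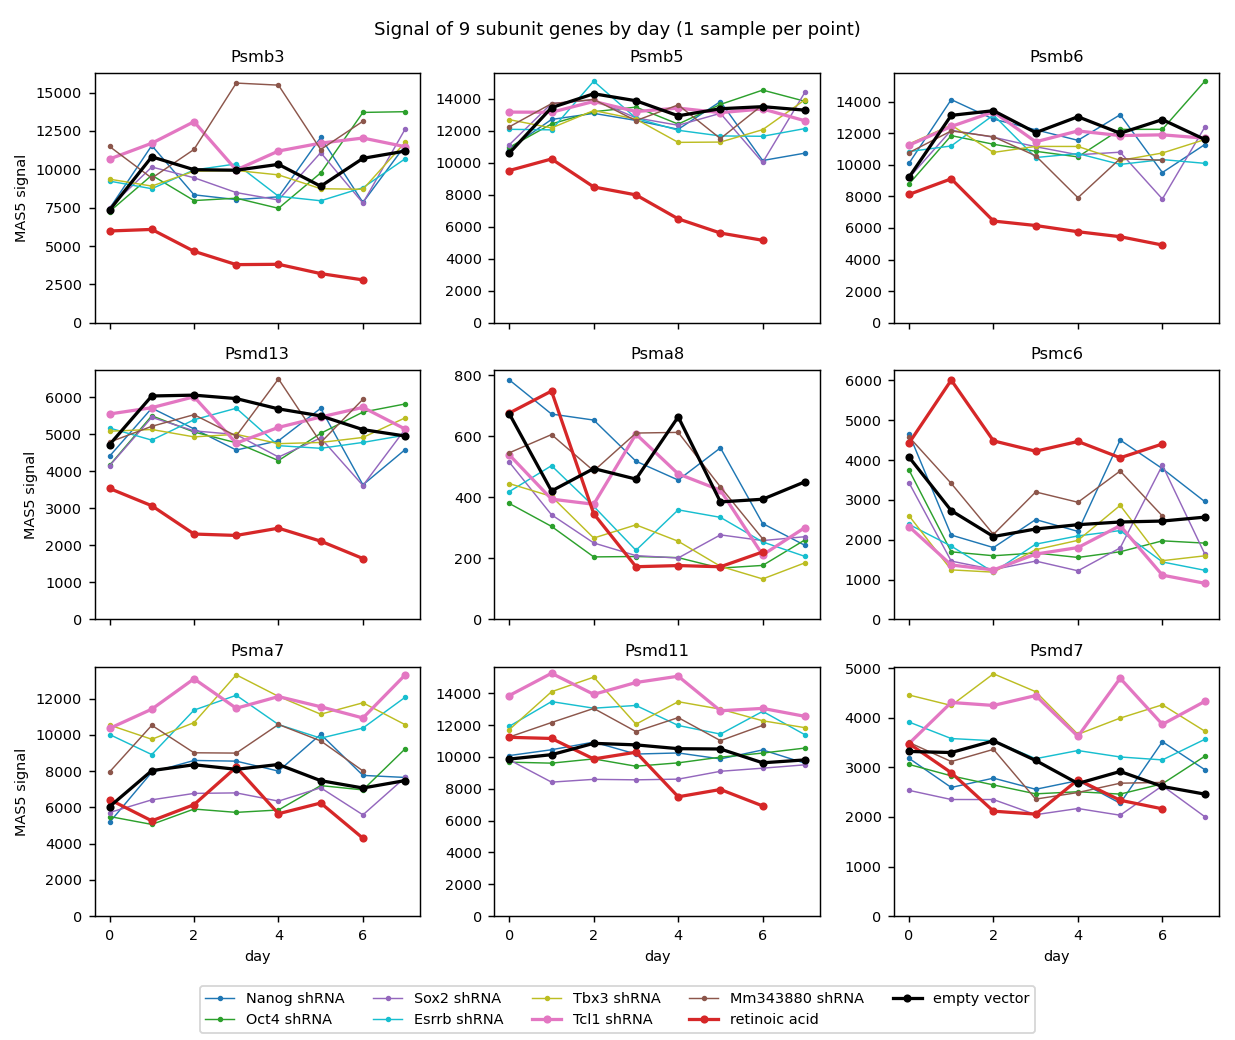
MAS5 signal (vertical axis, from 0) by day (horizontal axis) of 9 subunit genes in the 9 courses, 1 sample per point. Psmb3, Psmb5, Psmb6 and Psmd13 lie lowest in retinoic acid on every day, Psmc6 lies highest there on days 1 to 4, and from day 0 to day 6 the highest signal of Psma7, Psmd11 and Psmd7 is always in the Tcl1 or the Tbx3 course.

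Most genes with high signals were lower in retinoic acid. The median log2 difference between retinoic acid and the empty vector was 0.13 for 7937 genes with a mean signal under 500 and 0.04 for 4665 genes between 500 and 2000. It was -0.35 for 1346 genes between 2000 and 5000, -0.56 for 385 genes between 5000 and 10000, and -0.72 for 227 genes over 10000. Of the 1958 genes with a mean signal of at least 2000, 56.8% were called lower and 19.1% higher, against 24 lower and 1 higher of the 32 members in that range (75% lower). Their median was -0.46 over all such genes, members included, and -0.46 over the 32 members. Set beside the genes of their own signal class, 17 members lay below the class median and 19 above it, so as a group the members lay near other genes of like signal. Signal level moves with the result, and its part in the falls was not tested. Fibroblast markers also moved with it, with 4 of 5 called higher and 1 lower and a summed signal between 1494 and 22901 in retinoic acid, against 761 to 1637 in the empty vector; their part was not tested either. The summed signal of the endoderm markers ran from 1603 to 12571 in retinoic acid, against 1077 to 2182 in the empty vector, and its part was not tested. A loss of transcript per cell and a change in which cells are present cannot be told apart in bulk RNA.

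Few members stood away from their class. Of the 36, 7 were lower and 5 were higher than at least 75% of it. These shares are no larger than those of all genes in a class. Psmb3 was lower than its class median by -1.03 on the log2 scale, with 12.5% of that class lower still. Psmd13 was also -1.03 from its class median, with 13.0% of the class lower. Psmb5 and Psmb6 were -0.47 and -0.48 from the median of the brightest class, with 20.3% and 19.8% of it lower. These 4 genes, named above for the largest falls in the same comparison, lay below most genes of like signal. Psma8, the testis form, was -1.26 from the median of dim genes. Psmb11 was -1.03 from it, but it was not called and turned to 0.18 ± 1.02 without day 6 of retinoic acid. On the other side Psmc6 was 1.12 above its class median, and Psmd6, Psmc2, Psma3 and Psmb7 were 0.79, 0.68, 0.64 and 0.38 above theirs. The signal classes were chosen after the values were seen.

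**Figure D3:**
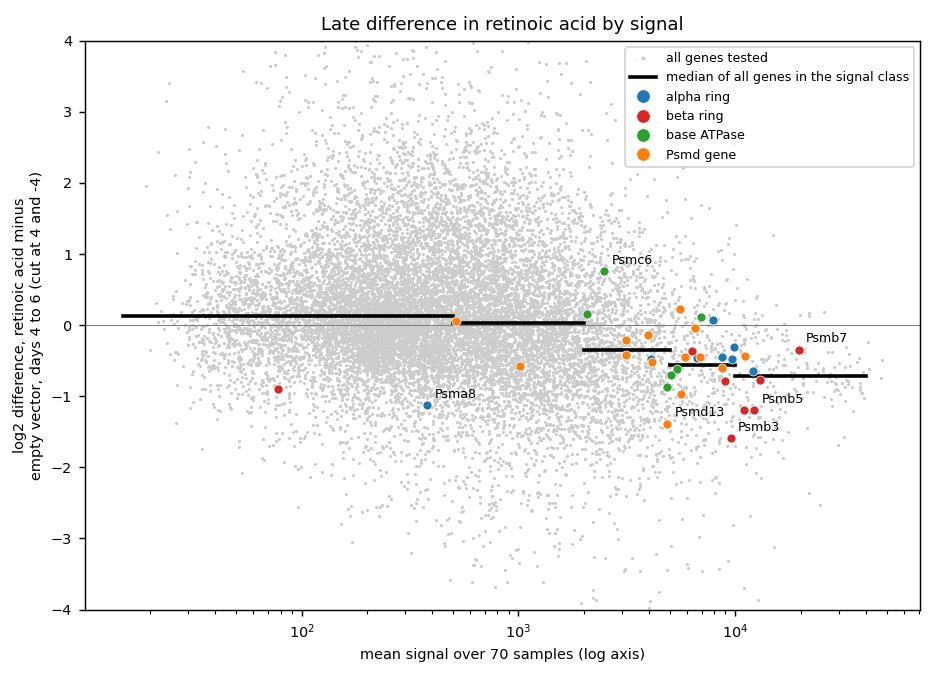
Late log2 difference, retinoic acid minus empty vector (vertical axis, cut at 4 and -4), against mean signal over 70 samples (horizontal log axis) for all genes tested (grey) and the subunit genes by role (colours); black bars are the median of each signal class. The bars fall from 0.13 to -0.72 as signal rises, most subunit genes lie near them, and Psmb3, Psmd13, Psma8 and Psmc6 lie apart.

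The change over time within the retinoic acid course, days 4 to 6 less days 0 and 1, was called for 22 of 36 members, all lower, against 33.5% of all genes in either direction (limma). Here 13.0% of genes with a signal of at least 2000 were higher and 44.2% lower. Psma8 (-1.57 ± 0.23), Psmb3 (-0.87 ± 0.18), Psmb5 (-0.75 ± 0.10) and the lid gene Psmd12 (-0.72 ± 0.15) fell most. Beyond the change of the empty vector over the same days, 15 members fell (41.7%) and 0 rose, against 24.2% of all genes in either direction. Of genes with a signal of at least 2000, 36.3% were lower in this comparison, near the members' share. Psma8 (-1.33 ± 0.32), Psmb3 (-1.05 ± 0.26), Psmb5 (-0.90 ± 0.14), Psmd8 (-0.82 ± 0.19) and Psmb6 (-0.82 ± 0.19) headed that list. Psmd12 was not called there, and neither was Psmc6. Both counts rest on the first and last days: without day 6 they were 5 and 3, without day 0 they were 13 and 3, and without day 1 the count within the course was 12. Without the day 6 sample of retinoic acid alone they were 4 and 2.

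Against the average of the other treated courses, which leaves out the empty vector, 28 members were lower and 1 was higher in retinoic acid, against 24.3% and 30.3% of all genes. Of genes with a signal of at least 2000, 61.3% were lower and 16.9% higher, against 26 lower and 1 higher of the 32 members in that range. Psmb3 (-1.62 ± 0.12), Psmd13 (-1.24 ± 0.09) and Psmb5 (-1.10 ± 0.07) were again far below, as was Psmb6 (1.99-fold lower), and Psmc6 (0.89 ± 0.16) above. The empty vector comparison and this one share the retinoic acid samples. Without day 6 of retinoic acid 15 members were lower and 0 higher.

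The 30 other probe sets of 19 members that passed the filter gave 10 calls late in retinoic acid, each in the direction of the probe set used, and 0 in the opposite direction. A second probe set of Psmb3 gave -1.31 ± 0.14. Of 3 others of Psmd13, one gave -1.02 ± 0.13 and the other two, of lower signal, were not called (-0.20 ± 0.20 and 0.69 ± 0.39). In 16 cases the other probe set was not called where the one used was. Psma1 is such a case: the probe set read on the B array gave -0.47 ± 0.11 (adjusted p = 0.00022) and the same probe set read on the A array -0.16 ± 0.12 (adjusted p = 0.29).

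In each knockdown course between 1 and 10 members were called different from the empty vector. In the Nanog course 2 of 36 were higher and 1 was lower, against 12.0% and 10.0% of all genes. In Oct4 0 were higher and 1 was lower, against 6.66% and 10.7%. In Esrrb 1 was higher and 0 were lower, against 7.44% and 5.3%. In Sox2 0 were higher and 6 lower, against 12.1% and 12.2%. Of genes with a signal of at least 2000, 31.2% were lower in Sox2, against 15.6% of the members in that range. In Mm343880 4 were higher and 1 was lower, against 7.55% and 7.18%. In Tbx3 4 were higher and 1 was lower, against 6.24% and 5.69%. In Tcl1 10 were higher (27.8%) and 0 lower, against 5.05% and 4.05%, and against 12.6% higher among the 1958 genes with a signal of at least 2000. Among genes with a signal of at least 2000, 17.4% were higher in Mm343880 and 12.7% in Tbx3, so the members' 11.1% there is not above that of bright genes, whereas the 27.8% in Tcl1 is above its 12.6%. For Nanog, Oct4 and Esrrb the share of members called was below that of all genes. All 8 comparisons share the empty vector samples. Of the 58 calls in the 8 comparisons, 31 were outside retinoic acid, and 34 of the 36 members were called in at least 1 course, against 64.9% of all genes and 92.2% of genes with a signal of at least 2000. These counts depend on the curve fitted: a spline with 2 degrees of freedom gave 12 calls in Tbx3, 8 in Esrrb, 8 in Mm343880, 7 in Nanog and 3 in Oct4, and a fit to days 4 to 6 with the day as a block gave 6 in Tcl1, 1 in Mm343880 and 1 in Nanog.

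**Figure D4:**
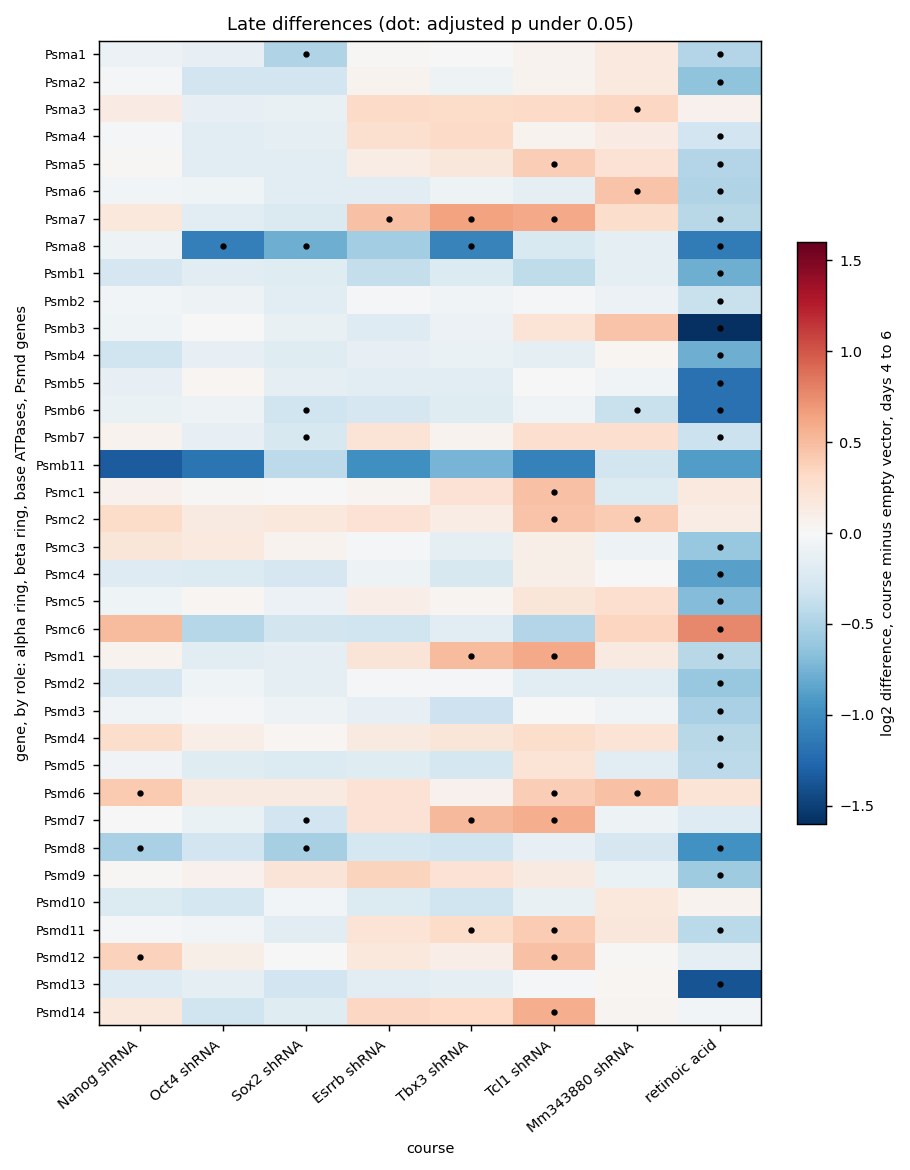
Late log2 difference from the empty vector, days 4 to 6 (colour), of the 36 subunit genes (rows) in the 8 treated courses (columns); a dot marks an adjusted p under 0.05. Retinoic acid has 26 dots on lower and 1 on higher values, and Tcl1 has 10 dots, all on higher values.

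The 10 genes higher in the Tcl1 course were 5 of the 8 lid genes (Psmd7, Psmd14, Psmd12, Psmd11 and Psmd6), the scaffold gene Psmd1, the ATPases Psmc1 and Psmc2 and the alpha subunits Psma5 and Psma7. None of the 8 beta ring genes was called there with the probe set used. Another probe set of Psmb1, of lower signal, was called higher (0.60 ± 0.18). In 9 cases another probe set was not called in Tcl1 where the one used was, all of Psma5, Psmc2, Psmd6 and Psmd11. Psma7 read 12112, 11550 and 10931 in Tcl1 on days 4 to 6, against 8364, 7473 and 7068 in the empty vector, a log2 difference of 0.60 ± 0.12 (1.52-fold, adjusted p = 6.7e-04), and its second probe set gave 0.62 ± 0.12. Psmd1 read 9420, 8330 and 6809 in Tcl1, against 5933, 6029 and 4227 in the empty vector (0.60 ± 0.14, adjusted p = 0.0029). Psmd7 read 3626, 4799 and 3869, against 2677, 2918 and 2616 (0.58 ± 0.12, adjusted p = 5.3e-04), and Psmd14 6672, 11053 and 8523, against 5949, 6547 and 5028 (0.58 ± 0.17, adjusted p = 0.024). In these 4 genes every late Tcl1 signal was above every late empty vector signal. They were named for the largest rises over the same days, so this adds no separate support. Some members not called in Tcl1, such as Psma3 and Psmd4, also had no overlap, and the share over all genes is not given. The summed signal of the trophoblast markers ran from 1781 to 6900 in Tcl1, against 1320 to 2556 in the empty vector, and its part in these differences was not tested. Day 5 carries part of the count, since without it 4 members were called, all higher; without any other day 8 or 9 were called.

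Psma7 (0.64 ± 0.12), Psmd7 (0.52 ± 0.12), Psmd1 (0.51 ± 0.14) and Psmd11 (0.30 ± 0.08), all higher in Tcl1, were also higher in Tbx3. Psma8 was lower in Tbx3 (-1.07 ± 0.20) and was not called in Tcl1. Psmd11 read 13466, 12998 and 12269 in Tbx3 on days 4 to 6, against 10516, 10496 and 9629 in the empty vector. However, 5 other probe sets of Psmd11 were not called in Tbx3, whereas the second probe set of Psma7 was (0.61 ± 0.12). In Mm343880 Psmd6 (0.46 ± 0.13), Psma6 (0.46 ± 0.11), Psmc2 (0.41 ± 0.13) and Psma3 (0.33 ± 0.11) were higher and Psmb6 was lower (-0.36 ± 0.12). Psma6 read 13386, 13901 and 13245 in Mm343880, against 9718, 10092 and 10275 in the empty vector. A second probe set of Psma6 was also called there (0.33 ± 0.10). In 5 cases another probe set was not called in Mm343880 where the one used was. Among them a second probe set of Psmc2 gave 0.002 ± 0.12. Psmb6 read 7919, 10395 and 10293 in Mm343880, against 13048, 12004 and 12867, and without day 6 its difference turned to 0.06. In Esrrb Psma7 alone was called (0.46 ± 0.12). Left-out days moved these small counts: Tbx3 had 3 calls without day 5, Mm343880 had 3 without day 2, 3 without day 5 and 1 without day 6, and Esrrb had 0 without day 5 and 2 without day 7.

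In Sox2 the 6 lower genes were Psma8 (-0.78 ± 0.20), Psmd8 (-0.53 ± 0.12), Psma1 (-0.48 ± 0.11), Psmb6 (-0.32 ± 0.12), Psmd7 (-0.31 ± 0.12) and Psmb7 (-0.25 ± 0.09). Psmd8 read 6058, 4288 and 4193 in Sox2 on days 4 to 6, against 6742, 6486 and 7451 in the empty vector, without overlap. Psma8 read 201, 277 and 258, against 664, 385 and 394, also without overlap. In Nanog Psmd6 (0.42 ± 0.12) and Psmd12 (0.37 ± 0.14) were higher and Psmd8 was lower (-0.52 ± 0.12), and in Oct4 Psma8 was lower (-1.10 ± 0.20). Psma8 in Oct4 read 203, 168 and 177 on days 4 to 6, below every empty vector signal. Psmd8 in Sox2 and Psma8 in Sox2 and Oct4 were named for their calls over these days. The lack of overlap there adds no separate support. Psma8 was called lower in 4 courses, and Psma7 was called higher in 3 and lower in 1. In Sox2 3 members were called without day 2, 3 without day 3 and 2 without day 4, Nanog had 6 calls without day 7, and Oct4 had 2 without day 4 and 2 without day 7.

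The empty vector samples enter every difference above, so each knockdown was also set against the average of the other 6 knockdown courses, a comparison chosen after the values were seen. Here Tcl1 had 11 members higher and 0 lower, against 5.84% and 6.04% of all genes. Sox2 had 10 lower and 0 higher, against 9.08% of all genes lower, and Oct4 10 lower and 0 higher, against 11.1% lower. Tbx3 had 5 higher and 2 lower and Mm343880 6 higher and 1 lower, against 7.03% and 5.87% of all genes higher. Nanog had 2 higher and 1 lower, and Esrrb 0 in either direction with 5 members at an unadjusted p under 0.05 (limma). Of all 14560 genes, 1429 were higher and 1008 lower in Nanog, and 734 higher and 452 lower in Esrrb. In Tbx3 955 of all genes were lower, and in Mm343880 876. Among genes with a signal of at least 2000, 18.9% were higher in Tcl1, 17.2% in Tbx3 and 19.7% in Mm343880, and 29.6% were lower in Sox2, so the members' 13.9% in Tbx3 and 16.7% in Mm343880 are not above bright genes. The share of members lower in Sox2 and Oct4 (27.8% each) is thus near that of bright genes (22.6% lower in Oct4), and the 11 of 36 higher in Tcl1 lies above the 18.9%. Within these sets Psmd7 was highest in Tcl1 (0.54 ± 0.09) and Psma7 lowest in Sox2 (-0.56 ± 0.09) and, after Psma8 and Psmd14, in Oct4 (-0.49 ± 0.09). Without day 5 there were 4 calls in Tcl1, 6 in Sox2, 3 in Oct4 and 3 in Tbx3. Without day 6 there were 6 in Oct4 and 0 in Mm343880, without day 4 there were 4 in Tbx3 and 2 in Mm343880, and without day 2 there were 3 in Mm343880.

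**Figure D5:**
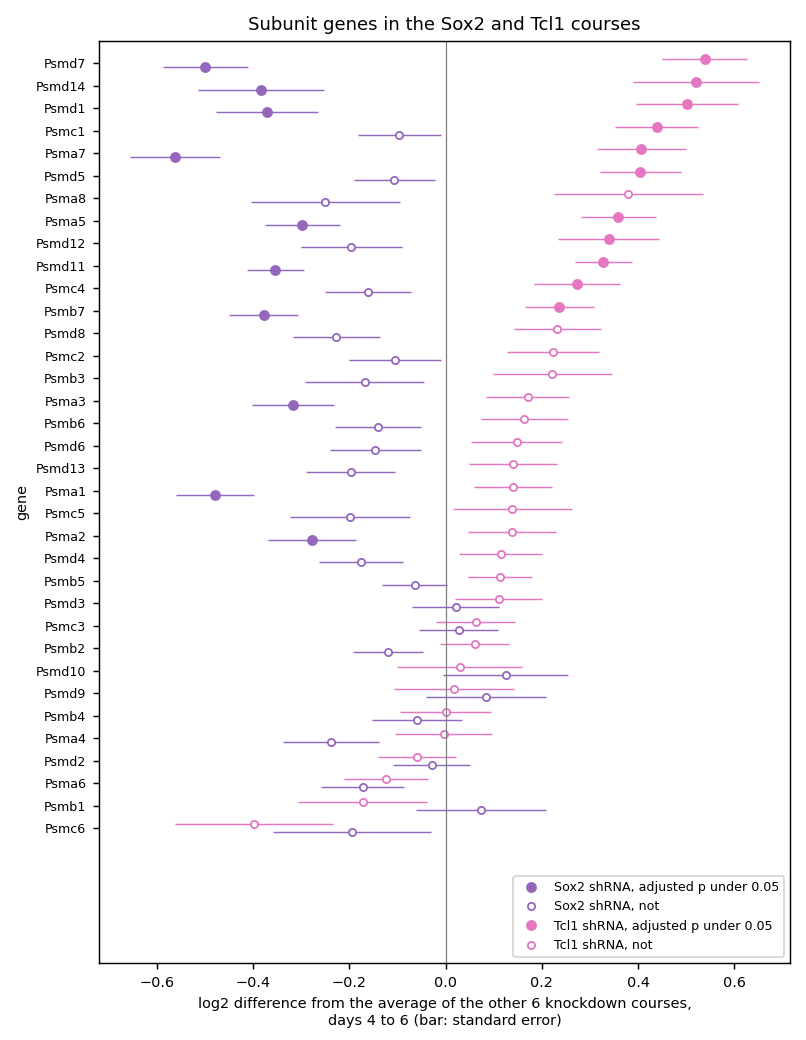
Log2 difference from the average of the other 6 knockdown courses on days 4 to 6 (horizontal axis, bars are standard errors) of 35 subunit genes (vertical axis; Psmb11 is left out for its wide error) in the Sox2 and Tcl1 courses; filled points have an adjusted p under 0.05. Filled Tcl1 points are all above 0 and filled Sox2 points all below 0; each of the courses is part of the average the other is set against.

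Many of the late knockdown differences had the same sign early in the course. Of the 31 calls outside retinoic acid, 24 had it on both day 0 and day 1 and 27 in the mean of these days, and in 17 that mean was over 50% of the late difference. These calls repeat some genes across courses and share the empty vector samples of both days. A same sign includes very small values, such as 0.0077 for Psmd12 in Nanog on day 1. The share over all genes called is not given, here or for retinoic acid, so these counts describe the calls only. On days 0 and 1 Psma7 read 10357 and 11418 in Tcl1, 10540 and 9756 in Tbx3 and 10019 and 8912 in Esrrb, against 6038 and 8027 in the empty vector. Psmd1 was 0.93 higher in Tcl1 and 0.88 higher in Tbx3 than in the empty vector on day 0 on the log2 scale. The median over members on day 0 was higher than the empty vector by 0.21 in Tcl1, 0.20 in Mm343880, 0.19 in Esrrb and 0.18 in Tbx3, and by 0.03 in Nanog and 0.01 in retinoic acid. It was -0.04 from it in Oct4 and -0.01 in Sox2. These offsets rest on 1 empty vector sample. On day 1 they were 0.05 in Tcl1, 0.02 in Mm343880, -0.03 in Esrrb and -0.02 in Tbx3. The empty vector's own median was at its highest (0.13) on that day. Over days 4 to 6 the members' median difference was 0.09 in Tcl1, 0.04 in Mm343880, -0.0009 in Esrrb and -0.04 in Tbx3. In Tcl1 the median over members, relative to each gene's own mean, lay above that of the empty vector on every day. In Mm343880 it did so on all days but day 3. The median of other genes with a signal of at least 2000 also lay above that of the empty vector on every day in both courses. A higher level on every day was thus not particular to the members. Day 0 came 48 hours after transduction, so an early response to the shRNA and a difference between the cultures cannot be told apart. In retinoic acid 15 of 27 late calls had the same sign on both days and 20 in their mean, and in 4 the mean was over 50% of the late difference.

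Within the courses the knockdowns changed few members over time. Between days 4 to 6 and days 0 and 1, 1 member rose and 2 fell in Nanog (10.9% of all genes called in either direction), 1 rose in Oct4 (8.39%) and 2 fell in Tbx3 (4.75%). In Nanog these were Psma7 (0.45 ± 0.14), Psmc5 (-0.70 ± 0.18) and Psma8 (-0.67 ± 0.23), in Oct4 Psmd3 (0.43 ± 0.13), and in Tbx3 Psma8 (-0.91 ± 0.23) and Psmc4 (-0.42 ± 0.13). In Sox2 (7.72%), Esrrb (6.68%), Tcl1 (2.27%), Mm343880 (9.24%) and the empty vector (0.804%) 0 members were called, with 2, 2, 2, 6 and 5 members at an unadjusted p under 0.05 (limma). Beyond the empty vector's own change, 0 members were called in any of the 7 knockdown courses, with 1 to 5 members at an unadjusted p under 0.05. All genes were called there in 3.38% of cases for Nanog, 1.44% for Oct4, 2.64% for Sox2, 1.62% for Esrrb, 0.598% for Tbx3, 0.103% for Tcl1 and 1.24% for Mm343880. Over the 7 knockdown courses these were 6 changes within a course, and 0 without day 0, 2 without day 1 and 2 without day 2. The 10 members higher in Tcl1 were therefore not shown to have changed during that course.

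Other genes of the pathway were taken from lists. Of all genes tested, 64.9% were called in at least 1 late comparison, and of those with a signal of at least 2000, 92.2%. The counts of list genes called are to be read beside these shares. The immunoproteasome genes Psmb8, Psmb9 and Psmb10, which replace the active-site subunits under inflammatory signals, were all called in at least 1 late comparison. Psmb10 read 500, 501 and 463 in retinoic acid on days 4 to 6, against 2419, 1934 and 1974 in the empty vector, a log2 difference of -1.96 ± 0.18, and Psmb9 also fell there (-1.40 ± 0.29). In Tbx3 Psmb10 read 4835, 3507 and 3576 (0.88 ± 0.18), and Psmb8 640, 610 and 587, against 55.5, 30.4 and 33.8 in the empty vector (2.71 ± 0.30). Psmb8 was also higher in Esrrb (2.02 ± 0.30), Mm343880 (1.94 ± 0.30), Tcl1 (1.55 ± 0.30) and Nanog (0.87 ± 0.30). The constitutive active-site genes Psmb5, Psmb6 and Psmb7 were not called higher in any of these courses. In Nanog Psmb10 went the other way and was called lower (-0.61 ± 0.18). Psmb8 is a dim gene, with a mean signal of 157, and was above the median of its table on only 14 arrays. Its empty vector signals on days 4 to 6 lay under the constant of 63.3 added before taking log2.

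All 5 core assembly chaperones tested were called somewhere, and 4 of 5 fell in retinoic acid with 0 higher. In retinoic acid 23.5% of all genes were lower, and 56.8% of those with a signal of at least 2000. Psmg1, which pairs with Psmg2 to build the alpha ring, read 2353, 2203 and 1942 in retinoic acid on days 4 to 6, against 7267, 7499 and 7470 in the empty vector (-1.76 ± 0.12), and also fell in Sox2 (-0.74 ± 0.12), Nanog (-0.37 ± 0.12) and Oct4 (-0.33 ± 0.12). Psmg4 fell by -1.04 ± 0.13 in retinoic acid. All 3 regulators of subunit transcription tested were called. Nfe2l1 was higher in retinoic acid (0.44 ± 0.12), Nanog, Esrrb and Sox2. Nfe2l2 was higher in retinoic acid (1.36 ± 0.12), Nanog and Sox2 and lower in Mm343880 (-0.50 ± 0.12), and Nrf1, nuclear respiratory factor, was lower in retinoic acid (-1.31 ± 0.11) and in 5 of the 7 knockdown courses. Nfe2l1 and Nfe2l2 were above the empty vector in the course in which most subunit genes were below it, and a link between these was not tested.

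Of the activators and inhibitor, 3 of 4 tested were called. Psme1, part of the activator that caps the core in place of the regulatory particle, was higher in Tbx3 (0.68 ± 0.14) and lower in retinoic acid (-0.36 ± 0.15), and the nuclear activator gene Psme4 was higher in retinoic acid (0.75 ± 0.26). Of the receptors and deubiquitinases bound to the proteasome, 3 of 5 were called: Ecpas, which tethers core and cap, was higher in retinoic acid (2.31 ± 0.30) and in every knockdown but Oct4. Usp14, a deubiquitinase, was higher in Mm343880 (0.45 ± 0.16) and Nanog, and Sem1, a small lid subunit, in Mm343880 (0.39 ± 0.14). Of the shuttles and the segregase, 4 of 8 were called, among them Vcp, the segregase, higher in all 7 knockdowns (0.28 to 0.54) and not called in retinoic acid (0.14 ± 0.07). Of the ubiquitin genes and activating enzymes 1 of 6 was tested, Uba6, which was higher in retinoic acid (1.20 ± 0.25) and Nanog (0.99 ± 0.25).

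Members resembled each other only loosely. Over the 70 samples the median Pearson correlation between pairs of members was 0.32, and 0.15 over the 63 samples without retinoic acid. All pairs share arrays, scaling and course, so these values describe the samples and are not tested. The genes outside the set whose log2 signal was most like the members' mean standardized signal over 70 samples were Mrpl45 (r = 0.92), a mitochondrial ribosomal protein gene, Tuba4a (0.91), a tubulin gene, Ppa1 (0.90), a pyrophosphatase gene, Nop10 (0.90), of small nucleolar particles, the assembly chaperone gene Psmg1 (0.90), Cisd1, Abt1 and Exosc2, an exosome component. Without retinoic acid Mrpl45 (0.83), H2az1 (0.83) and Chchd1 (0.82) came first.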

How the data were processed

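RNA of 70 samples was hybridised to Affymetrix MOE430A and MOE430B arrays, 140 in all. The deposited values are 1 intensity per probe set on a linear scale, made by the authors with MAS5, per the submitters' processing notes (version: not given in the sources used here). On every array the trimmed mean of 100 control probe sets carried by both designs equals 2500, so these had set the scale. The labels gave each sample's course and day. A Dppa4 course was not analysed here. The members and lists were chosen with earlier results of these data known.

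A constant was added to each signal before taking log2 (63.3 on A and 21.9 on B, the level under which 20% of each table lies), which understates fold changes of low genes. Probe sets above the table median (283.3 and 89.1) on at least 3 arrays were kept. Of the probe sets naming 1 gene, 20380 on A and 14661 on B, the one with the highest mean signal stood for each gene, and 14560 genes were tested, 8704 on A and 5856 on B. The highest correlation between arrays was 0.984 on A and 0.928 on B, so no array was taken for a copy.

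For A and B apart, limma 3.58.1 (R 4.3.3; lmFit, and eBayes with trend) fitted all 9 courses together, each with its own natural spline over days (3 degrees of freedom). Contrasts averaged the curves over days 4 to 6, or set them against days 0 and 1. Benjamini-Hochberg adjustment covered the genes of A and B together, and calls were made at 0.05. The models were tested on simulated data. Named genes were all members, per comparison up to 4 rises and 4 falls among those called, members called in most comparisons, Psmb5, Psmb6 and Psmb7, up to 3 called genes a list, and the 8 genes most like the members. Alternatives were pseudocounts, the filter, quantile and median scaling, the choice of probe set, the spline, the samples fitted, the trend, and leaving out each day.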

Additional observations from a re-analysis of the deposited data

Results flagged for a closer look

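In 5 of 81 groups of members and courses, which cover only a chosen part of the members, 1 day stood far from the others. A rate of about 1 in 20 was assumed for chance and was not derived for the rule used. The groups are not independent, since Psmb5 and Psmb6 were flagged on the same samples. Psma8 had its highest signal of the Sox2 course on day 0 (515.4). In the Esrrb course day 2 was far above the other days for Psmb5 (15109.2) and Psmb6 (13152.9). In the empty vector course day 0 was far below the other days for Psmb5 (10608.3) and Psmb6 (9213.8), a day that enters the changes over time beyond the empty vector.

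The change over time differed between the retinoic acid and the empty vector courses for 15 members by the interaction contrast in limma, all more negative in retinoic acid. On the log2 scale the differences were -1.33 for Psma8, -1.05 for Psmb3, -0.90 for Psmb5, -0.82 for Psmd8, -0.82 for Psmb6, -0.69 for Psmd13, -0.66 for Psma4, -0.65 for Psma5 and -0.62 for Psmb4. They were -0.60 for Psmd1, -0.58 for Psmd11, -0.54 for Psma6, -0.54 for Psma2, -0.50 for Psmc4 and -0.46 for Psmc3.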

How the results depend on the processing

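Of 2228 values of 124 single member results under alternatives, 1905 kept direction and side of the threshold, 311 were no longer called, 6 became called and 6 changed sign. The sign changed for Psma1 in retinoic acid with the mean of all probe sets (0.0891), for Psma4 and Psmb7 in retinoic acid with quantile normalization (0.029 and 0.232), for Psmb7 in Mm343880 against the other knockdowns with quantile normalization (-0.10), and without day 6 for Psmb3 and Psmb6 in Mm343880. Leaving out each day, Psmb3 against the other knockdowns ran between -0.147 (without day 6) and 0.797 (without day 5), and Psmb6 against the empty vector between -0.52 (without day 5) and 0.0611 (without day 6). Lower in retinoic acid in all 21 planned settings were 10 members: Psma2, Psmb1, Psmb3, Psmb4, Psmb5, Psmb6, Psmc3, Psmc4, Psmd2 and Psmd8.

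Counts of members called against the empty vector moved by over 1.5 times as follows. With quantile normalization Nanog had 5 and Sox2 3. With equal array medians Esrrb had 2 and Mm343880 2, also with day 6 of retinoic acid left out (2 and 2). With a spline of 2 degrees of freedom Nanog had 7, Oct4 3, Esrrb 8, Tbx3 12 and Mm343880 8. With no spline and the day as a block Nanog had 1, Tcl1 6 and Mm343880 1. With only the courses compared Oct4 had 4, Sox2 3, Esrrb 3, Tbx3 8 and Mm343880 2. Without a trend Sox2 had 3 and Mm343880 3, with a pseudocount of 1 Esrrb had 2, and with days 4 and 5 as late Mm343880 had 3. With day 6 of retinoic acid left out, an alternative chosen after seeing the data like that of days 4 and 5, retinoic acid had 11 calls against the empty vector, 4 within the course, 2 beyond the empty vector and 15 against the other treated courses. Days 4 and 5 gave 14 within and 9 beyond, and equal medians without that sample 12 within. Beyond the empty vector quantile normalization gave 7 and equal medians 23. Against the other knockdowns Oct4 had 5 with quantile normalization and 5 with equal medians, Sox2 4 with quantile normalization and Tbx3 4 with equal medians. The cause of these moves was not tested.

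Leaving out each day in turn gave 2 to 6 calls in Nanog, 1 to 2 in Oct4, 2 to 6 in Sox2, 0 to 2 in Esrrb, 3 to 5 in Tbx3, 4 to 9 in Tcl1, 1 to 5 in Mm343880 and 13 to 27 in retinoic acid against the empty vector. It gave 5 to 22 within retinoic acid, 3 to 14 beyond the empty vector, 15 to 31 against the other treated courses, 0 to 0 within the empty vector and 0 to 7 over the 7 knockdown courses. Against the other knockdowns it gave 1 to 2 in Nanog, 3 to 10 in Oct4, 6 to 12 in Sox2, 0 to 0 in Esrrb, 3 to 6 in Tbx3, 4 to 12 in Tcl1 and 0 to 8 in Mm343880. Courses share only the day, and the setting with no spline has the day as a block over days 4 to 6; it left 27 calls in retinoic acid.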
